A study of Mus musculus with 88 samples.

Results

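Undifferentiated Mtf2 null mouse embryonic stem cells (ESCs) were compared with undifferentiated wild-type (WT) ESCs in bulk RNA-seq. The comparison takes the undifferentiated libraries of the tables of directed differentiation toward mesoderm and toward endoderm, 4 Mtf2 null and 4 WT libraries, which are 8 of the 88 samples of the series. Each table holds 2 libraries per genotype, and levels below are listed in the order mesoderm table, then endoderm table. All 8 carry the strain label E14, an ESC line of the 129/Ola background, were grown in serum with LIF, and had not yet been treated for differentiation. WT cells carry no engineered allele, and the Mtf2 null cells are a gene trap line in which both alleles are trapped (Mtf2GT/GT), so that a shortened transcript can remain. The authors describe the 2 libraries of a genotype in a table as technical duplicates, so the p-values below measure the spread among 4 libraries from 2 experiments and not among independently derived clones. Undifferentiated Jarid2 null (Jarid2-/-) libraries of the same tables, day 0 single cells of WT and Mtf2 null, and a day 0 sample of Pcl1-3 WT cells are set beside them. All of these ESCs were kept in serum with LIF.

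MTF2 is an accessory subunit of Polycomb repressive complex 2 (PRC2), the enzyme complex that methylates lysine 27 of histone H3. Together with PHF1 or PHF19 it belongs to the Polycomb-like proteins that define the PRC2.1 form, bind CpG-rich DNA, and bring the complex to promoters, whereas JARID2 and AEBP2 define PRC2.2. In ESCs, PRC2 keeps many genes of later lineages at a low level of transcription while pluripotency genes are active. The comparison asks which processes and gene families differ before any differentiation signal is given.

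The 8 libraries held 9889871 to 13737927 estimated counts. A transcript that overlaps ribosomal RNA sequence, Gm26917, took 15.3% to 15.9% of the counts in WT and 17.8% to 21.4% in Mtf2 null libraries, and its part in the results was not tested. Levels are given as CPM, a gene's count scaled to a library of fixed size, after TMM correction for library composition, and they are not divided by transcript length, so they compare a gene between libraries and not 1 gene with another. Markers of undifferentiated ESCs were high as a sum in every library, at 4424 to 5075 CPM in WT and 4881 to 6008 CPM in Mtf2 null libraries over 8 genes. Of these 8, 1 was called, Zfp42, which was lower in Mtf2 null libraries and is described below. Of 7 fibroblast or feeder markers, 3 had 0 counts in all 8 libraries, and the sum was 7.96 to 11.8 CPM in WT and 4.81 to 5.65 CPM in Mtf2 null libraries. A longer fibroblast list had 2 higher and 3 lower of 9, and summed to 469 to 637 CPM in WT and 805 to 922 CPM in Mtf2 null libraries. Fn1, the fibronectin gene, was among those higher (1.01) but fell short of the threshold of 1 without WT mesoderm library 2 (0.91), WT endoderm library 2 (0.94), or Mtf2 null mesoderm library 1 (0.98). The 6 trophoblast markers summed to 4.53 to 9.97 CPM in WT and 6.26 to 9.22 CPM in Mtf2 null libraries. A longer trophoblast list, which shares keratin and imprinted genes with lists below, had 5 higher and 0 lower of 14, among them Krt8, Krt18, Tfap2c, and Peg10, and summed to 302 to 389 CPM in WT and 1002 to 1075 CPM in Mtf2 null libraries. The part of other cell types in the results was not tested.

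Hprt set the genotypes apart as lines. Hprt (ENSMUSG00000025630, chromosome X from 52988137 to 53021659, plus strand), which encodes a purine salvage enzyme, was at 0.283, 0.518, 0.265, and 0.186 CPM in the 4 WT libraries and at 81.7, 73.5, 89.3, and 77.9 CPM in the 4 Mtf2 null libraries. Sublines of E14 that lack a working Hprt gene are in wide use, and nothing in the labels ties Hprt to the Mtf2 allele. In undifferentiated cells of Pcl1-3 WT, the line that the authors name as the matched WT of Mtf2 null, Hprt was at 126 CPM. That line has 1 day 0 sample in a separate table of the series, which is set beside both genotypes below without a test. In the comparison between Mtf2 null and the WT libraries used here, loss of Mtf2 and the origin of the line cannot be told apart.

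The targeted gene followed its label. Mtf2 (ENSMUSG00000029267, chromosome 5 from 108065674 to 108109004, plus strand) was at 359, 505, 419, and 506 CPM in WT and 33.3, 30.6, 33.4, and 29.7 CPM in Mtf2 null libraries, so that every Mtf2 null library lay below every WT library. The log2 fold change was -3.82 ± 0.13 (SE, n = 4 libraries per genotype), with a Benjamini-Hochberg adjusted p = 4.4e-12 from the quasi-likelihood test of edgeR, which is used for all adjusted p-values below. Genes were called higher or lower where the log2 fold change passed 1 or -1 with an adjusted p below 0.001. Of 15796 genes tested, 2362 were called (15.0%), 1309 higher (8.29%) and 1053 lower (6.67%) in Mtf2 null cells, and the median log2 fold change over all genes tested was -0.03. Libraries of the genotypes did not overlap for 7970 genes (50.5%).

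Among 14 PRC2 subunit genes tested, 2 rose and 1, Mtf2 itself, fell. With the targeted gene counted, 21.4% were called, and 19.0% of the PRC1 genes below were. Both shares lie near the 15.0% called over all genes. Phf19, which encodes another Polycomb-like protein of PRC2.1, rose from 7.74 ± 1.19 CPM (mean ± SD, n = 4, as for all such values below) in WT to 27.1 ± 2.85 CPM in Mtf2 null libraries (log2 fold change 1.80 ± 0.12). Jarid2, the PRC2.2 subunit, rose from 402 ± 50.8 to 953 ± 62.8 CPM (log2 fold change 1.25 ± 0.11). The genes of the catalytic core did not pass the test. Ezh2, the main methyltransferase in ESCs, was at 107 to 128 CPM in WT and 121 to 148 CPM in Mtf2 null libraries, Eed at 185 to 227 and 202 to 231 CPM, and Suz12 at 156 to 179 and 212 to 264 CPM. Rbbp4, a histone-binding subunit gene, was not called and had a log2 fold change of 0.02 ± 0.10. Among the 21 genes of PRC1, the other Polycomb complex, Scmh1 and Bcor rose (log2 fold changes of 1.70 and 1.21) and Bcorl1 and Cbx2 fell (-2.27 and -1.08), though Cbx2 fell short of the threshold without Mtf2 null endoderm library 1 and in the mesoderm table alone (-0.98).

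**Figure D1:**
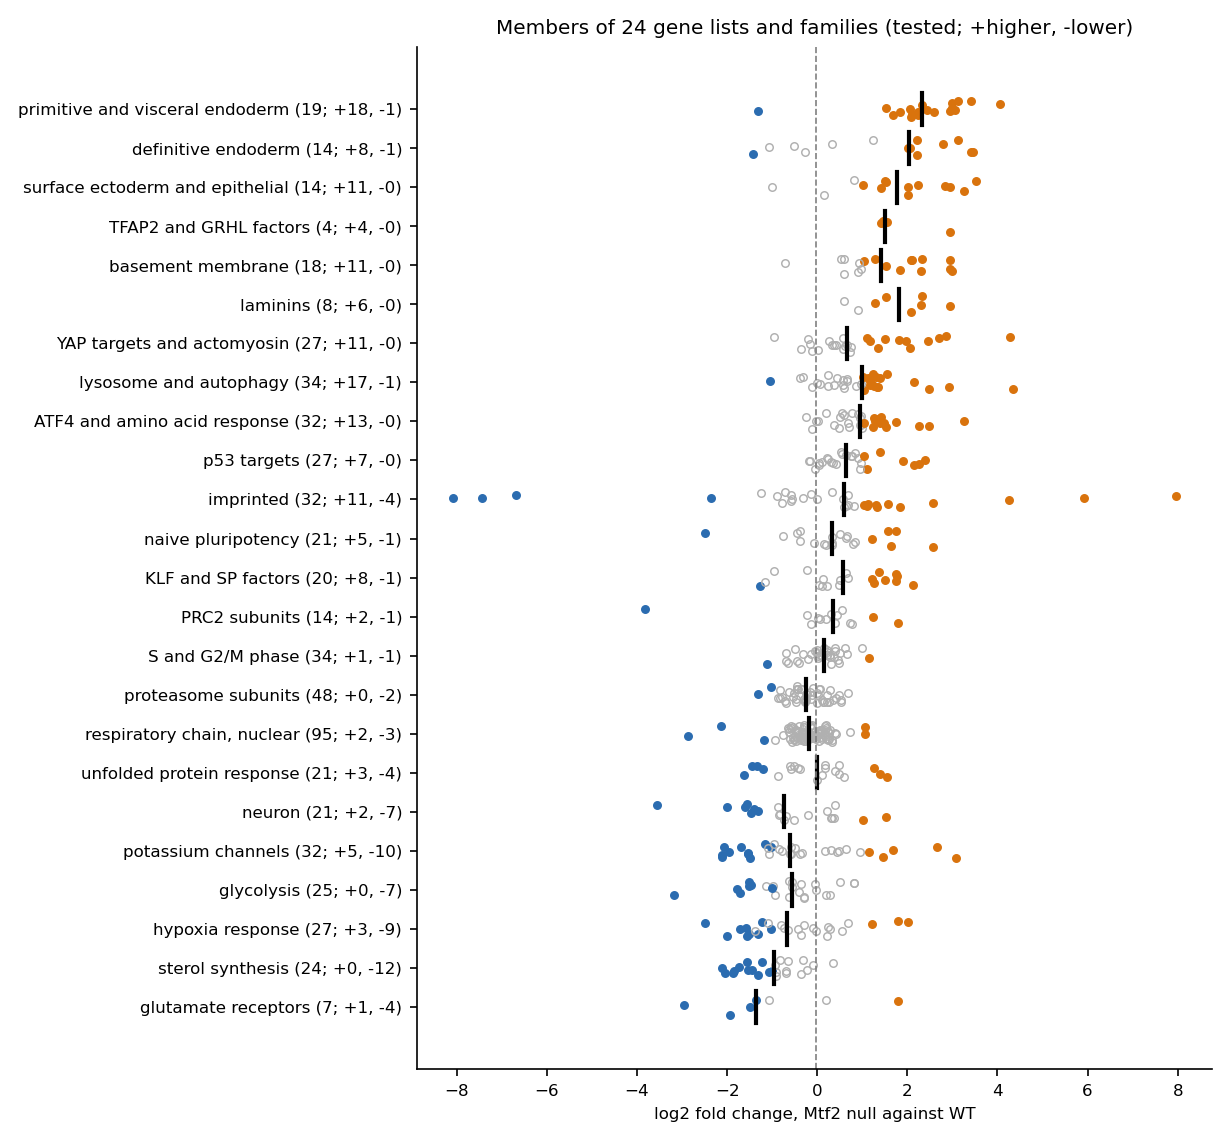
Log2 fold change of Mtf2 null against WT (x axis) for the tested members of 24 gene lists and families (rows), with the number tested, called higher, and called lower beside each name. Points are genes, filled where called, bars mark the median of each list, and the dashed line marks the median of all genes tested (-0.03). The primitive and visceral endoderm list lies farthest to the right and the sterol synthesis and glutamate receptor lists lie to the left.

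By the rule used to name genes, the 8 genes called higher with the largest log2 fold change, with at least 5 CPM in Mtf2 null cells and no overlap between genotypes, were Gc, Plagl1, Hprt, Olig2, Enpep, Crisp1, Apoa2, and Nnat. Gc, which encodes the vitamin D binding protein of plasma, had 0 counts in all 4 WT libraries and 5.89, 9.39, 7.14, and 6.96 CPM in Mtf2 null libraries, and was at least 27-fold higher against a floor of 3 counts per library. Over the 4 WT libraries there were 1 count of Plagl1, a maternally imprinted zinc finger gene, 2 of the aminopeptidase gene Enpep, 2 of Crisp1, 3 of the neural bHLH factor Olig2, and 3 of the apolipoprotein gene Apoa2, so no fold is given for them. In Mtf2 null libraries these were at 6.97 to 9.38 CPM (Plagl1), 3.61 to 7.67 CPM (Enpep), 4.44 to 6.33 CPM (Crisp1), 15.2 to 17.6 CPM (Olig2), and 4.85 to 5.8 CPM (Apoa2). Nnat, another imprinted gene, was at 0.094, 0.345, 0, and 0.093 CPM in WT and 7.09, 10.2, 7.94, and 9.98 CPM in Mtf2 null libraries. Pcl1-3 WT cells had 18.1 CPM of Plagl1, 5.79 CPM of Olig2, 6.88 CPM of Apoa2, and 10.5 CPM of Nnat, but 0.29 CPM of Gc and 0 CPM of Enpep. The first 4 were thus read in the matched WT line as well.

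The 6 genes called lower that the same rule names were all processed pseudogenes, copies of mRNAs without introns. They were Rpl34-ps1, Tdgf1-ps1, Rpl3-ps1, Zfp42-ps1, Rps3a3, and Pcna-ps2, at means of 209, 139, 1016, 15.8, 489.6, and 106 CPM in WT and at most 0.586 CPM in Mtf2 null libraries. Between 55.4% and 100% of their 31-base words also occur in another gene, so their counts depend on how reads were divided between copies. Processed pseudogenes as a class had 458 genes tested, 129 called lower, 13 called higher, and a median log2 fold change of -0.58. In 94 of the 129 the mean in Mtf2 null libraries was under 1 CPM. Several parent genes moved the other way. Rpl34, Rpl3, and Rps3a1, genes of ribosomal proteins, had log2 fold changes of 1.08, 1.15, and 2.06, with Rpl34 falling short of 1 without WT endoderm library 1 (0.96) or Mtf2 null endoderm library 2 (0.99), while Tdgf1 (-0.08) and Pcna (-0.45) were not called. Kpna2, the importin alpha gene, and its copy Gm10184 are named after their values were seen. Kpna2 rose from 10.0 ± 1.23 to 408 ± 24.1 CPM, while Gm10184, with 99% of its words shared, fell from 350.4 ± 36.9 to 0.903 ± 0.74 CPM. In single cells at day 0, counted by another method, Kpna2 differed little, at 355 UMI CPM in WT and 401 in Mtf2 null cells. Such pairs are not read as changes of the parent gene here. Without the 1311 genes that share over 50% of their words with another gene, 1227 of 14485 genes were called higher (8.47%) and 860 lower (5.94%).

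Extraembryonic endoderm genes were higher almost throughout. Primitive endoderm is the layer of the blastocyst that lies against the epiblast and gives rise to visceral and parietal endoderm of the yolk sac. It is marked by GATA and SOX factors and lays down a thick basement membrane. Of 19 genes tested from a list of primitive and visceral endoderm, 18 rose and 1 fell, with a median log2 fold change of 2.32, beside the 8.29% called higher over all genes. In each table alone 18 members were called higher as well. Of the 23 list members present in both tables, 19 passed the count filter. A gene passes when the libraries of 1 genotype reach the minimum. A member near 0 in WT, such as Sox17, could thus be tested only because Mtf2 null libraries were higher. The same holds for genes near 0 in WT in the lists below, so their direction is no separate evidence. Gata6 (ENSMUSG00000005836), a GATA factor that specifies primitive endoderm, was at 1.89, 1.81, 1.77, and 2.14 CPM in WT and 15.5, 16.9, 16.4, and 17.6 CPM in Mtf2 null libraries. All Mtf2 null libraries lay above all WT libraries (log2 fold change 3.12 ± 0.14, adjusted p = 8.4e-11). Sox17 (ENSMUSG00000025902, chromosome 1 from 4490931 to 4497354, minus strand), an endoderm SOX factor, was at 0.944, 0.604, 1.33, and 0.093 CPM in WT and 6.07, 9.69, 6.09, and 10.2 CPM in Mtf2 null libraries. The spread of Sox17 was wide in both genotypes, but the groups did not overlap (log2 fold change 3.40 ± 0.41, adjusted p = 3.1e-05). Without WT mesoderm library 2 Sox17 was not called, with a log2 fold change of 3.31 and an adjusted p above the threshold. Its call was lost without WT mesoderm library 2, at a log2 fold change of 3.31, and with the replicate number as a block, at 3.39. Cubn (ENSMUSG00000026726, chromosome 2 from 13276338 to 13491813, minus strand), which encodes the endocytic receptor cubilin of visceral endoderm, was at 12.1, 8.37, 13.6, and 9.97 CPM in WT and 173, 201, 157, and 197 CPM in Mtf2 null libraries (log2 fold change 4.05 ± 0.14, adjusted p = 7.8e-12). Dab2, the adaptor of that receptor, rose from 5.02 ± 0.822 to 42.1 ± 2.97 CPM (3.07 ± 0.12).

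The 8 primitive endoderm markers used to check for other cell types, Gata6, Gata4, Sox17, Sox7, Pdgfra, Dab2, Cubn, and Foxq1, were all called higher. Their summed level was 29.3 to 39.4 CPM in WT and 279 to 345 CPM in Mtf2 null libraries, and none of them was at 0 in all 8 libraries. In bulk RNA, more cells of a type and more RNA per cell cannot be told apart. Among the 366 WT and 357 Mtf2 null single cells kept at day 0, the same 8 genes had 24 and 42 UMIs in all, out of 3471242 and 4566369. Of the 18 list members that rose in bulk, 1 was higher, 2 were lower, and 15 had overlapping 95% Poisson intervals in these single cells, which are 1 library per genotype and cover counting error only. In Pcl1-3 WT cells, 1 of the 18 lay nearer to Mtf2 null than to WT. Gata6 was at 1.3 CPM and Cubn at 1.67 CPM there, close to or below the WT libraries. The list overlaps with definitive endoderm, of which 8 of 14 genes rose and 1 fell (median 2.03). Prdm1 rose from 6.7 ± 1.45 to 31.1 ± 4.29 CPM, whereas Hhex, at 3.28 to 5.93 CPM in WT and 2.93 to 3.96 CPM in Mtf2 null libraries, did not pass the test.

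**Figure D2:**
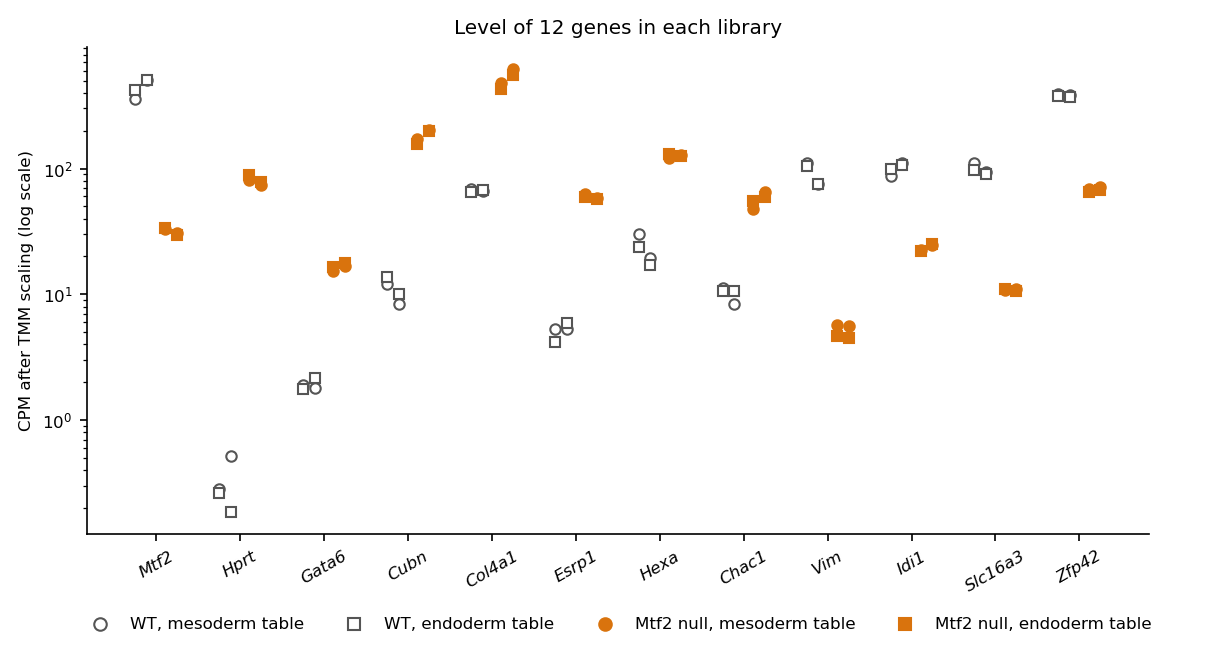
CPM after TMM scaling (y axis, log scale) in each of the 8 libraries for 12 genes, with WT libraries as open symbols and Mtf2 null libraries as filled symbols, circles for the mesoderm table and squares for the endoderm table. The genotypes do not overlap for any gene shown, and the 4 libraries of a genotype lie close together except for Hprt in WT.

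Matrix and adhesion genes moved with the endoderm list and share members with it. Basement membranes are sheets of laminin and type IV collagen joined by nidogen and perlecan. Of 18 such genes and their receptors tested, 11 rose and 0 fell, with a median of 1.41, beside 8.29% called higher over all genes. Libraries of the genotypes did not overlap for 18 of them, and for 50.5% of all genes tested. Col4a1 (chromosome 8 from 11198423 to 11312826), a chain of type IV collagen, was at 69.4, 65.9, 65.1, and 67.7 CPM in WT and 482, 616, 426, and 555 CPM in Mtf2 null libraries (log2 fold change 2.95 ± 0.12, adjusted p = 2.9e-11). Col4a2, which shares its promoter region with Col4a1, rose by a like amount, with a log2 fold change of 2.99 ± 0.12. Both were higher in the Mtf2 null libraries of the mesoderm table (3.02 and 3.01) and of the endoderm table (2.89 and 2.98). Of 8 laminin chain genes, 6 rose, among them Lama1 (159 to 195 CPM in WT and 608 to 843 in Mtf2 null) and Lamb1 (69.4 to 78.5 and 304 to 428). Of 22 collagen genes, Col4a1 and Col4a2 were the 2 called higher and 4 fell, the fibrillar chains Col5a1 and Col5a3 among them at log2 fold changes of -2.04 and -2.32. In single cells, 2 of the 11 basement membrane genes were higher, 2 were lower, and the intervals of the rest overlapped. In Pcl1-3 WT cells, 3 of the 11 lay nearer to Mtf2 null.

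Most epithelial genes tested rose. Of 14 genes of surface ectoderm and epithelium, 11 rose and 0 fell (median 1.77). Esrp1 (ENSMUSG00000040728), a splicing factor of epithelial cells, was at 5.28, 5.26, 4.16, and 5.87 CPM in WT and 63, 58.7, 59.6, and 56.9 CPM in Mtf2 null libraries (log2 fold change 3.53 ± 0.11, adjusted p = 1.3e-12). Grhl2, a grainyhead factor that activates epithelial genes, was at 8.02, 7.08, 8.5, and 9.04 and 65.8, 64.2, 60.1, and 60.7 CPM (2.94 ± 0.10). All 4 tested genes of the TFAP2 and grainyhead families, Grhl1, Grhl2, Grhl3, and Tfap2c, were called higher. The tight junction genes Cldn4, Cldn6, and Cldn7 rose by log2 fold changes of 2.84, 2.20, and 3.27, and 4 of 6 claudins did. Of 8 connexin genes, which encode gap junction channels, 3 rose, with Gja1 going from 52.8 ± 3.45 to 259 ± 3.54 CPM. Of 10 cadherin genes, 5 rose and 2 fell. Cdh1, which encodes E-cadherin, had a log2 fold change of 1.01 ± 0.11, just past the threshold of 1, at 194 to 255 CPM in WT and 428 to 477 CPM in Mtf2 null libraries. It fell short of it without WT mesoderm library 2 (0.92) or WT endoderm library 2 (0.98). A list of the epithelial-mesenchymal transition, which holds genes of both states, had 10 higher and 4 lower of 21 (median 1.01). Of its mesenchymal genes, Fn1 and Snai1 rose and Vim, Zeb1, Mmp2, and Tgfbi fell. Vim (ENSMUSG00000026728), the intermediate filament gene of mesenchymal cells, fell from 111, 75.2, 104, and 75 CPM in WT to 5.71, 5.55, 4.65, and 4.5 CPM in Mtf2 null libraries (log2 fold change -4.17 ± 0.16, adjusted p = 4.2e-11). Single cells had 213 UMI CPM of Vim in WT and 23.2 in Mtf2 null, and Pcl1-3 WT cells had 86.7 CPM. Of the 11 epithelial genes that rose, 7 were also higher and 0 were lower in single cells, and 2 lay nearer to Mtf2 null in Pcl1-3 WT cells.

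Targets of YAP and TEAD factors, which respond to adhesion and tension, include the matricellular genes Ccn1 and Ccn2. Of 27 such targets and actomyosin genes tested, 11 rose and 0 fell (median 0.66). Ccn2 was at 6.23 to 7.46 CPM in WT and 45 to 55.7 CPM in Mtf2 null libraries (2.87 ± 0.11), Ccn1 at 3.81 to 6.42 and 27.5 to 35.9 CPM (2.71 ± 0.14), and Ankrd1 at 0.177 to 0.691 and 5.69 to 8.68 CPM. Flna, the filamin gene, was not called and had a log2 fold change of 0.37. Of 7 S100 calcium-binding protein genes 4 rose, with S100a6 going from 6.74 ± 1.92 to 44.7 ± 6.65 CPM. Of 10 serpin protease inhibitor genes 5 rose, among them Serpinh1, the collagen chaperone gene, from 36 ± 4.03 to 154 ± 24.2 CPM. The heparan sulphate genes Hs3st1, Hs6st2, Sdc4, and Sdc2 rose, with Sdc4 at 17.4 to 21.7 CPM in WT and 99.7 to 106 CPM in Mtf2 null libraries, and 5 of 22 genes of that pathway were higher and 1 lower. Integrins stayed near the share of all genes, with 2 higher and 2 lower of 19.

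Lysosomal genes rose broadly. Lysosomes break down endocytosed and autophagic cargo, and many of their genes carry the CLEAR element bound by TFEB and TFE3, factors that also act in the exit of ESCs from pluripotency. Of 34 lysosome and autophagy genes tested, 17 rose and 1 fell, with a median log2 fold change of 1.00. Hexa (ENSMUSG00000025232, chromosome 9 from 59539540 to 59565109, plus strand), the alpha subunit of hexosaminidase, was at 29.9, 19.4, 23.8, and 17.2 CPM in WT and 121, 127, 129.8, and 125 CPM in Mtf2 null libraries. The WT libraries spread more widely than the Mtf2 null libraries and all lay below them (log2 fold change 2.48 ± 0.14, adjusted p = 1.2e-09). Ctsa, which encodes the protective protein cathepsin A, was at 31.8, 25.2, 32.9, and 21.9 and 131, 129, 114, and 119 CPM (2.14 ± 0.12, adjusted p = 8.4e-10). Sqstm1, the autophagy receptor p62, rose from 67.5 ± 9.34 to 196 ± 7.97 CPM, and Ctsh from 1.7 ± 0.786 to 13 ± 2.04 CPM, while Map1lc3b was not called at 66.6 to 87.7 and 86.8 to 94.6 CPM. In single cells 2 of the 17 were higher and 0 lower, with 15 overlapping. In Pcl1-3 WT cells, 8 of the 17 lay nearer to Mtf2 null.

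Genes of the amino acid stress response rose in the same libraries. When amino acids run short or translation initiation is held back, the factor ATF4 binds composite elements (CARE) and induces amino acid transporters, aminoacyl-tRNA synthetases, and feedback genes such as Trib3 and Chac1. Of 32 such genes tested, 13 rose and 0 fell (median 0.96). Chac1 (ENSMUSG00000027313), a glutathione-degrading enzyme, was at 11.2, 8.37, 10.6, and 10.7 CPM in WT and 48, 65.3, 55.2, and 59 CPM in Mtf2 null libraries (log2 fold change 2.48 ± 0.12, adjusted p = 1.8e-10). Trib3 (ENSMUSG00000032715), a pseudokinase that holds back ATF4, was at 24.1, 18, 21.2, and 21.3 and 66.1, 79.6, 66.6, and 71.2 CPM (1.74 ± 0.10, adjusted p = 1.9e-09). Atf3 rose from 1.53 ± 0.364 to 14.7 ± 2.22 CPM and Nupr1 from 9.82 ± 1.09 to 47.1 ± 6.7 CPM. Aars, the alanyl-tRNA synthetase gene, was at 458 to 596 and 463 to 559 CPM and did not pass the test. None of the 13 lay nearer to Mtf2 null in Pcl1-3 WT cells. In single cells 1 of them was higher, 3 were lower, and 9 overlapped.

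Promoter sequence was read for these groups from windows of 250 bases before to 50 bases after the start of transcription in RefSeq on GRCm38.p6, which covered 10709 of the 15796 genes tested. The windows below belong to called genes and were picked because they hold the motif of their group, so they are not typical of its members. Hexa and Sqstm1, for example, had no CLEAR match. Ctsa has 2 windows, and the first with a match is shown. Capitals mark matches, on either strand, to TGATGNAA for the ATF4 element in Chac1 (chr2:119350992-119351291, plus strand) and Trib3 (chr2:152344011-152344310, minus strand), to TCACGTGA for the CLEAR element in Ctsa (chr2:164833523-164833822, plus strand), and to ACGTG for the hypoxia element in Bnip3 (chr7:138909457-138909756, minus strand), a gene described with metabolism below.
Chac1: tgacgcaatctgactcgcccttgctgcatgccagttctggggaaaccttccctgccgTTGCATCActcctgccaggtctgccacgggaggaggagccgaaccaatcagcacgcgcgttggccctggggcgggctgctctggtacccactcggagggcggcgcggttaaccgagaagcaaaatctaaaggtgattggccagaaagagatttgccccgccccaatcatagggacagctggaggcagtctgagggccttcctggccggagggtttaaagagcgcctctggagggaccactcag
Trib3: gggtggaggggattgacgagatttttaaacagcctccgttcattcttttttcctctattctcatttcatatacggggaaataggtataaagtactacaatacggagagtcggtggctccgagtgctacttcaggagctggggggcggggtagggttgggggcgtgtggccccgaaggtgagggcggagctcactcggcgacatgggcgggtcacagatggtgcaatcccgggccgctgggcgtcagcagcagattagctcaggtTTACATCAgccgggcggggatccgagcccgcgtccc
Ctsa: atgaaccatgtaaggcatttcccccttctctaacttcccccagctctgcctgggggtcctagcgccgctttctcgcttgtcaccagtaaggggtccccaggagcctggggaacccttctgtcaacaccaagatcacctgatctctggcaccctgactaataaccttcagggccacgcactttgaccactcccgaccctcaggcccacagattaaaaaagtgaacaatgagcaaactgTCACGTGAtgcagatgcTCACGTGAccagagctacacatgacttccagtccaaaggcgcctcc
Bnip3: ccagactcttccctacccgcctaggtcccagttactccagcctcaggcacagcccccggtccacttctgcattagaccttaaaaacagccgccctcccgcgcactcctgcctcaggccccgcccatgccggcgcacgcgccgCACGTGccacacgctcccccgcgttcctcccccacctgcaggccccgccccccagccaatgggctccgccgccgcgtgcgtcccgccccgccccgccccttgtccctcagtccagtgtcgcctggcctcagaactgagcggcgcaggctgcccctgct
The ATF4 motif stood in 5 of the 11 windows of called members of the amino acid list (45.5%), in 5 of 14 of the members not called (35.7%), and in 2.9% of all windows. The CLEAR motif stood in 3 of 15 windows of called lysosomal genes (20.0%) and in 1 of 11 of the others (9.09%), against 2.1% of all windows. The hypoxia motif, which lies inside the CLEAR motif, stood in 8 of 9 windows of called hypoxia genes (88.9%), 8 of 12 of the others (66.7%), and 29.0% of all windows. For these 3 motifs, members that were and were not called both held the motif of their list more often than the average window. A sterol element (TCACNCCAC) was read for the sterol synthesis genes described below. It stood in 1 of 7 windows of called genes (14.3%), 0 of 10 of the others, and 1.46% of all windows. A match describes letters in a window and not a bound site. CG dinucleotides numbered a median of 20 in all windows, 18 in those of genes called higher, and 17 in those of genes called lower.

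Other stress responses were partial. Of 27 p53 targets, 7 rose and 0 fell, with Gadd45a, Perp, Plk2, and the BH3-only gene Pmaip1 at log2 fold changes of 2.26, 2.15, 1.91, and 2.38, while Ccng1 was not called (0.22). Of 21 immediate early genes 8 rose and 1 fell, and Jun went from 3.59 ± 0.94 to 14.9 ± 2.4 CPM. Endoplasmic reticulum stress genes did not follow the ATF4 list. Of 21, 3 rose and 4 fell. Hspa5 (ENSMUSG00000026864), the luminal chaperone BiP, was at 425, 436, 395, and 417 CPM in WT and 139, 144, 125, and 131 CPM in Mtf2 null libraries (log2 fold change -1.63 ± 0.09, adjusted p = 9.4e-10), whereas Atf6, which encodes a stress sensor of that compartment, rose (1.55 ± 0.10). Heat shock and glutathione genes were near the share of all genes, with 1 higher and 2 lower of 18, and 3 higher of 25.

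The mevalonate pathway makes cholesterol from acetyl-CoA and is induced by SREBP2 when sterols are low. Of 24 genes of sterol synthesis and uptake tested, 0 rose and 12 fell, with a median of -0.97, beside 6.67% called lower over all genes. The same number fell in each table alone. Idi1 (ENSMUSG00000058258), isopentenyl diphosphate isomerase, was at 87.9, 111, 99.9, and 108 CPM in WT and 22.5, 24.5, 22.1, and 25.3 CPM in Mtf2 null libraries (log2 fold change -2.11 ± 0.10, adjusted p = 1.4e-10). Fdps, farnesyl diphosphate synthase, was at 73.8, 62.4, 64.5, and 55.4 and 16.2, 14.9, 15.2, and 15.8 CPM (-2.04 ± 0.10), although 27.9% of its words occur in another gene. Dhcr7, a late enzyme of the pathway, fell from 37 ± 3.64 to 10.1 ± 0.891 CPM (-1.87 ± 0.11). The regulator gene Srebf2 was not called, at 133 to 185 CPM in WT and 139.5 to 154 CPM in Mtf2 null libraries. In single cells 8 of the 12 were lower, 0 were higher, and 4 overlapped, and in Pcl1-3 WT cells 0 of the 12 lay nearer to Mtf2 null. The desaturase genes Scd2 and Fads2 fell too (-1.66 and -1.29), but over the fatty acid list 3 rose and 2 fell of 26, and Fasn was not called.

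Glycolysis had 7 of 25 genes called lower and 0 higher (median -0.57). Ldha (ENSMUSG00000063229), lactate dehydrogenase, was at 1080.1, 1048, 1053, and 1075 CPM in WT and 314, 355, 306, and 322 CPM in Mtf2 null libraries (log2 fold change -1.72 ± 0.10, adjusted p = 1.9e-09). Slc16a3 (ENSMUSG00000025161), the lactate exporter, was at 110.2, 94.6, 96.8, and 91 and 10.9, 11.1, 11, and 10.6 CPM (-3.17 ± 0.10, adjusted p = 9.4e-13). Pfkp fell from 296 ± 11 to 103 ± 5.04 CPM and Aldoc from 13.3 ± 2.96 to 3.84 ± 0.768 CPM, whereas Pkm, at 2651 to 2897 and 1893 to 2387 CPM, did not pass. All 7 were also lower in single cells, and 0 lay nearer to Mtf2 null in Pcl1-3 WT cells. Genes induced by low oxygen overlap with those of glycolysis. Of 27 tested, 9 fell and 3 rose (median -0.66). Bnip3, a mitophagy receptor gene, fell from 125 ± 18.4 to 22.2 ± 1.7 CPM (-2.50 ± 0.12), with 57% of its words shared with another gene, and Egln3, a prolyl hydroxylase that marks HIF factors for degradation, from 28.1 ± 2.65 to 7.04 ± 0.982 CPM (-2.0 ± 0.12). Epas1, which encodes HIF-2 alpha, rose (1.79 ± 0.14), as did the repressor Bhlhe41 (2.00 ± 0.25).

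The remaining energy and growth machinery stayed close to WT. Of 95 nuclear genes of the respiratory chain 2 rose and 3 fell, of 31 genes of the citric acid cycle 1 and 2, of 78 mitochondrial ribosomal protein genes 0 and 3, of 48 proteasome genes 0 and 2, and of 34 genes of S and G2/M phase 1 and 1, all below the 15.0% called over all genes. Among cytosolic ribosomal protein genes, 6 of 83 rose, among them the parents of pseudogenes named above, and Rpl39l, an autosomal copy of Rpl39 with 2.05% of its words shared, fell from 19.5 ± 2.71 to 0.40 ± 0.076 CPM. Zinc finger genes named Zfp, 365 of them, had 19 called higher and 12 lower, 8.49% in all beside the 15.0% over all genes. Solute carriers lay above that share, with 20.4% called, and of 230 tested 35 rose and 12 fell. They were led by the vitamin C transporter Slc23a1, which rose from 1.56 ± 0.842 to 26.5 ± 1.37 CPM, the iron exporter Slc40a1 (0.653 to 1.29 and 6.33 to 8.43 CPM), and the fall of Slc16a3 given above.

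Of 21 neuronal genes tested, 2 rose and 7 fell (median -0.73), and the summed level of the markers was 292 to 329 CPM in WT and 243 to 259 CPM in Mtf2 null libraries. Ncam1, a neural adhesion gene, fell from 41.6 ± 6.15 to 14 ± 1.19 CPM (-1.57 ± 0.11), while the neurofilament gene Nefl rose from 12 ± 0.372 to 34.6 ± 2.92 CPM (1.53 ± 0.10). Of 32 potassium channel genes 10 fell and 5 rose (median -0.60). Hcn2, which encodes a pacemaker channel, was at 15.7, 11, 15.1, and 11.4 CPM in WT and 5.25, 4.64, 3.69, and 4.91 CPM in Mtf2 null libraries (-1.53 ± 0.16), and Kcnk1, a leak channel, rose from 6.93 ± 0.503 to 22.1 ± 2.91 CPM. Calcium channel genes had 2 higher and 4 lower of 14 (median -0.85), with 1 in place of 2 higher on leaving out any of 6 of the 8 libraries. Glutamate receptor genes had 1 higher and 4 lower of 7 (median -1.36), with 2 lower without Mtf2 null endoderm library 1 and 0 higher on leaving out any library but WT endoderm library 1. Sodium channel genes had 2 higher and 2 lower of 8, TRP channel genes had 1 higher and 0 lower of 9, and GABA and glycine receptor genes had 1 higher and 0 lower of 4. Receptors for acetylcholine, serotonin, dopamine, and adrenaline had 1 higher and 1 lower of 10. Counts of 1 or 2 higher genes in several of these families, the sodium channels among them, changed by 1 on leaving out single libraries. Genes of neural progenitors had 4 higher and 0 lower of 11, Olig1 and Olig2 among them. Grin1 (ENSMUSG00000026959), the obligate NMDA receptor subunit, was at 8.68, 9.32, 7.26, and 7.74 CPM in WT and 1.1, 0.909, 1.44, and 0.736 CPM in Mtf2 null libraries (log2 fold change -2.95 ± 0.21, adjusted p = 1.6e-08). Synaptic vesicle genes had 2 higher and 3 lower of 24, and Unc13a, a vesicle priming gene, fell from 25.6 ± 2.21 to 5.24 ± 0.35 CPM. Over all genes tested 15.0% were called. Synaptic vesicle genes (20.8%), the acetylcholine, serotonin, dopamine, and adrenaline receptors (20.0%), and TRP channels (11.1%) lay near that share. Neuronal genes (42.9%) and potassium channels (46.9%) lay farther above it.

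Guidance cues, which steer growing axons and moving cells, were split. Of 18 Eph receptor and ephrin genes 6 rose and 2 fell, with the ligands Efnb2 and Efna5 at 2.36 to 3.02 and 0.093 to 0.472 CPM in WT and 25.3 to 27.9 and 5.24 to 6.25 CPM in Mtf2 null libraries, in that order. Of 25 semaphorin, plexin, and neuropilin genes 8 rose and 5 fell. Nrp2, a semaphorin co-receptor, was at 11.2, 7.94, 10.2, and 8.02 CPM in WT and 81.8, 82.7, 76.3, and 77.3 CPM in Mtf2 null libraries (3.09 ± 0.11), and Sema3e rose (2.85 ± 0.13) while Sema5b fell (-1.66 ± 0.12). The netrin gene Ntn1 and its receptor Neo1 rose as well, by log2 fold changes of 1.93 and 1.27. The Slit, Robo, netrin, and Unc5 family had 2 higher and 1 lower of 13 (23.1% called). The share called was 44.4% for Eph receptors and ephrins and 52.0% for semaphorins, plexins, and neuropilins, beside 15.0% over all genes.

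Developmental transcription factors are the textbook targets of PRC2, and some families of them differed. Other families could hardly be tested, with 2 of 39 Hox, 2 of 9 PAX, 1 of 6 Iroquois, and 1 of 12 LIM-homeobox genes passing the count filter. Nuclear receptors (17.4% called), PRDM factors (20.0%), and ETS factors (21.1%) lay nearer to the 15.0% called over all genes than the families below. Among 13 SOX genes 6 rose and 2 fell. The 6 became 3 without WT mesoderm library 2 and with the replicate block, and the 2 became 1 with the block and without WT mesoderm library 1 or WT endoderm library 1. Among 25 Forkhead genes 8 rose and 1 fell, and among 20 KLF and SP genes 8 rose and 1 fell. Klf5, a factor of the pluripotency network, was at 392, 285, 398, and 279.9 CPM in WT and 1120.2, 1027, 1254, and 1150.1 CPM in Mtf2 null libraries (1.75 ± 0.14, adjusted p = 4.2e-08). Of 23 developmental bHLH genes 6 rose and 1 fell, and Olig1, which neighbors Olig2, rose from 0.957 ± 0.326 to 21.5 ± 2.85 CPM. POU genes had 0 higher and 3 lower of 8. Pou4f1, Pou4f2, and Pou2f3, factors of sensory neurons and tuft cells, fell by log2 fold changes of -2.54, -1.75, and -4.09, whereas Pou5f1, which encodes the pluripotency factor OCT4, was at 718 to 899 CPM in WT and 735 to 938 CPM in Mtf2 null libraries and did not pass the test (0.06 ± 0.11). Zic2 and Zic5, zinc finger genes of the early neural plate, fell from 5.23 ± 1.02 to 0.709 ± 0.271 CPM and from 16.6 ± 2.41 to 1.26 ± 0.409 CPM.

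Pluripotency genes were not lost as a group. Of 21 naive pluripotency genes 5 rose and 1 fell (median 0.33), and of 12 core genes 1 rose. Zfp42 (ENSMUSG00000051176, chromosome 8 from 43295063 to 43306980, minus strand), the ESC marker Rex1, was the exception, at 390.4, 385, 378, and 369 CPM in WT and 68.6, 71.7, 65, and 67.4 CPM in Mtf2 null libraries (log2 fold change -2.48 ± 0.09, adjusted p = 9.5e-12). It was at 66.9 CPM in Pcl1-3 WT cells before centering, and after centering it lay nearer to Mtf2 null than to WT. Single cells had 666 and 135 UMI CPM of Zfp42 in WT and Mtf2 null. Dppa3 and Nr0b1 rose (2.56 and 1.65). Formative epiblast genes, which turn on when naive cells move toward gastrulation, had 1 of 12 higher and 4 lower. Dnmt3b stayed below the fold threshold, at 78.1 to 99.4 and 158 to 189 CPM, while Dnmt3a fell and Dnmt3l rose (-1.29 and 1.02), the last falling short of the threshold without WT mesoderm library 2 (0.99) or Mtf2 null mesoderm library 2 (0.98). Germ cell and meiosis genes had 8 of 26 lower, Dnd1 and Tdrkh among them, and 3 higher, led by Tex15 at 8.96 to 17.1 CPM in WT and 79.5 to 95.8 CPM in Mtf2 null libraries.

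Imprinted genes differed widely in both directions. They are transcribed from 1 parental allele, and their marks can be lost in cultured ESC lines. Of 32 tested, 11 rose and 4 fell. The maternally expressed noncoding RNAs Meg3, Rian, and Mirg lie next to each other in the Dlk1-Dio3 cluster on chromosome 12 of GRCm38, at 109541001 to 109571726 (Meg3), 109603940 to 109661716 (Rian), and 109729764 to 109749460 (Mirg). Meg3 was at 86.6, 115, 73.5, and 115 CPM in WT and 0.828, 0.505, 0.16, and 0.736 CPM in Mtf2 null libraries (-7.43 ± 0.28, adjusted p = 5.6e-09), and Rian at 180.1, 240.0, 202, and 243 and 1.56, 1.92, 1.52, and 3.35 CPM (-6.68 ± 0.20, adjusted p = 4.4e-12). Mirg was at 14.7 to 25.6 CPM in WT, with 3 counts over the 4 Mtf2 null libraries. In single cells the 3 RNAs were at 323, 81.5, and 34.9 UMI CPM in WT and 13.6, 4.6, and 2.63 in Mtf2 null, and they are not listed for Pcl1-3 WT cells. Of the 9 imprinted genes higher in Mtf2 null cells and listed there, 6 lay nearer to Mtf2 null, Plagl1 and Nnat among them. All 4 imprinted genes that fell were also lower in single cells. Cdkn1c, an imprinted inhibitor of cyclin-dependent kinases, fell from 85.5 ± 3.35 to 16.7 ± 2.34 CPM, and Peg10 rose from 225 ± 36.5 to 811 ± 36.4 CPM. Of the 4 that fell, Cdkn1c was the 1 listed for Pcl1-3 WT cells, and there it lay nearer to Mtf2 null than to WT.

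Signaling pathways are taken from ligands through receptors to targets. Over all genes tested 15.0% were called, 8.29% higher and 6.67% lower. The Wnt receptor and modulator list (13.8% called) and the Wnt target list (17.6%) lay near that share. Wnt7b was the 1 Wnt ligand called of 5 tested, at 0.944, 1.12, 0.354, and 0.559 CPM in WT and 14.8, 13.7, 13.6, and 14.1 CPM in Mtf2 null libraries (4.23 ± 0.21, adjusted p = 2.4e-10). Wnt receptors and modulators had 0 called higher and 4 lower of 29, with the receptor Fzd10 and the secreted inhibitors Sfrp2 and Sfrp4 lower (-1.97, -1.47, and -2.08). Wnt targets and effectors had 2 higher and 1 lower of 17 (median 0.10), with the TCF factor genes Tcf7l1 and Tcf7l2 higher (1.24 and 1.04), the latter falling short of 1 without WT mesoderm library 2 (0.94) or Mtf2 null mesoderm library 1 (0.97). Axin2, a feedback target, was the member that fell, at 12, 9.49, 12.9, and 8.02 CPM in WT and 3.5, 4.24, 3.69, and 2.94 CPM in Mtf2 null libraries (-1.56 ± 0.18). Ligands of the BMP and TGF-beta pathway had 2 higher and 2 lower of 15, and its antagonists, receptors, and targets had 6 higher and 2 lower of 31. The antagonists Bmper and Fst rose from 0.502 ± 0.247 to 7.9 ± 1.93 CPM and from 0.471 ± 0.256 to 5.83 ± 1.24 CPM, and the target Id2 rose (1.78 ± 0.09) while Smad7 (-0.07) was not called. Lefty2, a Nodal antagonist, fell from 85.1 ± 16.9 to 28.3 ± 2.52 CPM. In the Hedgehog pathway, with 5 higher and 1 lower of 17, Ptch1 (ENSMUSG00000021466), the receptor and a target of the pathway, was at 69.5, 55.8, 67.6, and 56 CPM in WT and 352, 331, 320.3, and 294 CPM in Mtf2 null libraries (2.38 ± 0.11, adjusted p = 8.6e-11). The target Gli1 also rose (1.62 ± 0.09), and Gli2 was not called. Of 43 receptor tyrosine kinases and ligands 10 rose and 7 fell, with Pdgfra and its ligand Pdgfc both higher (2.24 and 2.32), and Fgfr2 rose (2.06) while Fgf4 was not called (0.32).

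**Figure D3:**
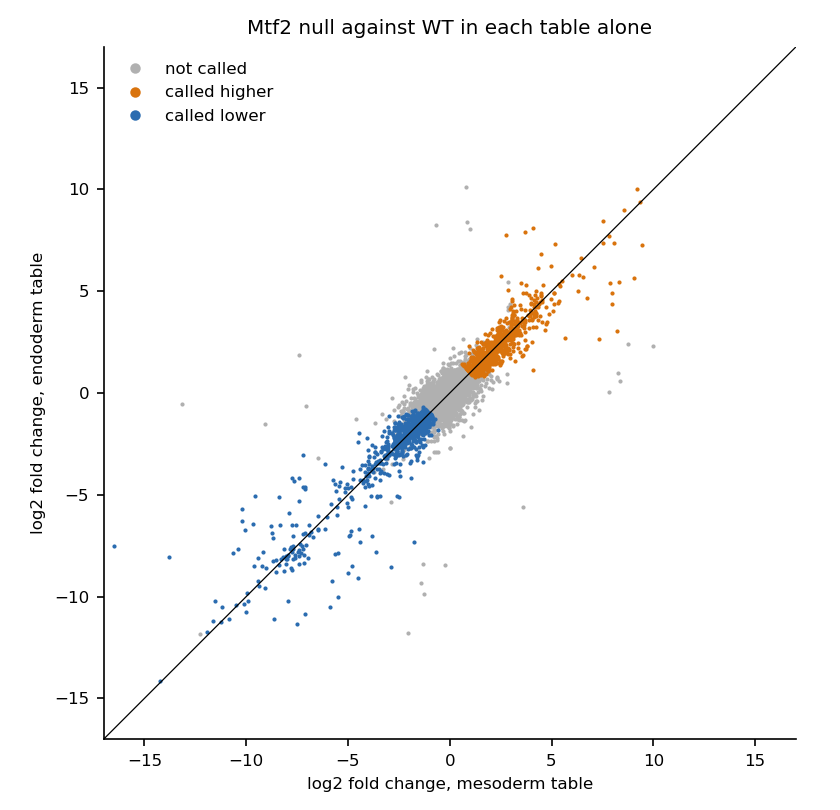
Log2 fold change of Mtf2 null against WT in the mesoderm table alone (x axis) and in the endoderm table alone (y axis), 2 libraries per genotype in each, for the genes tested in both. Orange points are genes called higher and blue points genes called lower with both tables, gray points are not called. The called genes lie along the diagonal, and none was called in opposite directions.

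In the mesoderm table alone 1274 genes were called higher (7.99%) and 995 lower (6.24%), and in the endoderm table alone 1325 (8.03%) and 1092 (6.62%). Of the 2362 genes called with both tables, 1816 were called the same way in each table alone and 0 in the opposite direction in 1 table. A genotype by table interaction was found for 1 gene of 15796 at an adjusted p under 0.001 (0.00633%) and for 9 under 0.05 (0.057%). The tables share the cell lines.

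**Figure D4:**
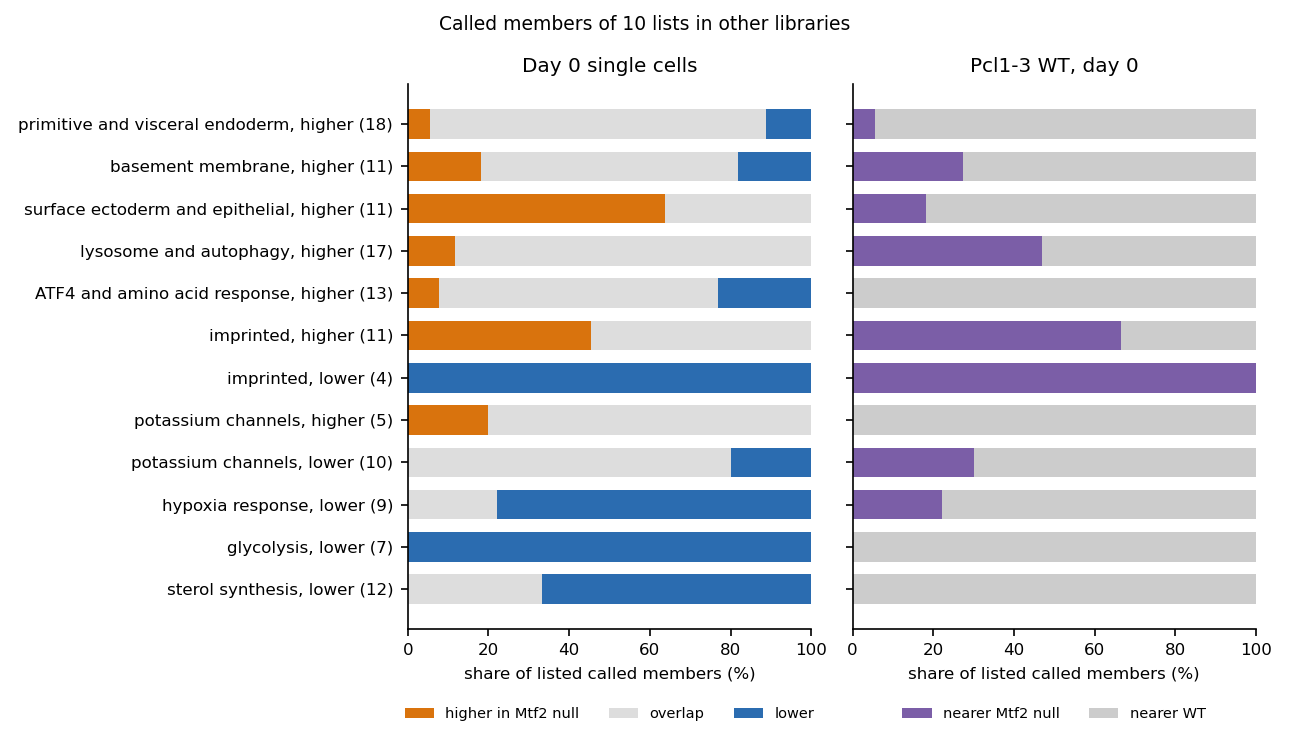
For the called members of 10 lists, the share (percent, x axis) whose 95% Poisson interval in day 0 single cells was higher, overlapping, or lower in Mtf2 null (left), and the share whose level in Pcl1-3 WT cells lay nearer to Mtf2 null or nearer to WT (right). Shares are of the members listed in each data set, and members called higher and called lower are in separate rows with their number. Glycolysis genes were lower in single cells throughout, and endoderm genes mostly overlapped.

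Single cells at day 0 give the same comparison in other libraries, with 1 plate per genotype and no test. Of the 1285 genes called higher in bulk and listed there, 424 were higher, 43 lower, and 818 overlapping. Of the 986 called lower and listed, 382 were lower, 35 higher, and 569 overlapping. Zfp42, Vim, Meg3, Slc16a3, Hprt, and Olig2 thus differed in the same direction in both readouts, Olig2 with 0 (0 to 1.06) UMI CPM in WT and 149 (138 to 161) in Mtf2 null. The intervals of Col4a1 overlapped, at 9.22 (6.31 to 13) and 4.38 (2.68 to 6.76) UMI CPM, and Chac1 went the other way, at 52.7 (45.4 to 60.9) and 27.8 (23.2 to 33.1). Intervals are 95% Poisson intervals. SORT-seq reads the 3' end of polyadenylated RNA and the bulk libraries were depleted of ribosomal RNA, and the part of that difference was not tested.

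Pcl1-3 WT cells at day 0, the matched WT line, gave 13809934 reads in a table made separately, and were centered on the genes compared. Of the 1234 genes called higher and listed there, 528 lay nearer to the Mtf2 null than to the WT libraries, and of the 916 called lower, 430 did. This reading has 1 sample and no test. For the sterol, glycolysis, and amino acid lists 0 of 12, 0 of 7, and 0 of 13 called members were nearer to Mtf2 null, and for the endoderm list 1 of 18. For lysosomal and imprinted genes the higher members were 8 of 17 and 6 of 9. In that sample the line and the preparation cannot be told apart.

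**Figure D5:**
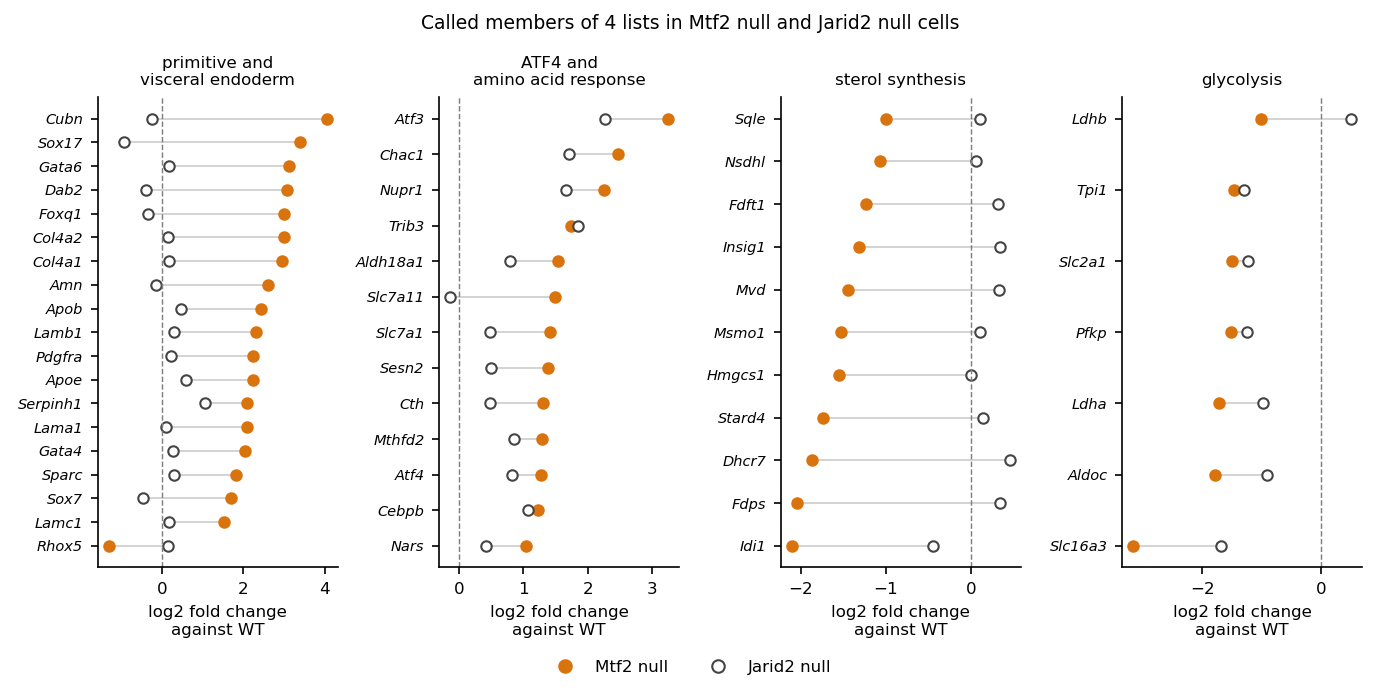
Log2 fold change against WT of Mtf2 null (filled) and Jarid2 null (open) for the called members of the primitive and visceral endoderm, amino acid response, sterol synthesis, and glycolysis lists (rows), apart from 1 sterol gene that is not drawn. Both mutants share the 4 WT libraries. Over all tested members, the Jarid2 null median is 0.16 for the endoderm list and 0.18 for the sterol list, with 1 endoderm gene called higher in Jarid2 null. Jarid2 null values lie on the side of Mtf2 null for the glycolysis genes other than Ldhb.

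Jarid2 null cells, the mutant of the other PRC2 form, were sequenced undifferentiated in the same tables with 4 libraries, and share the WT libraries with Mtf2 null. At the same thresholds 207 of 16655 genes were called against WT (1.24%), 109 higher (0.654%) and 98 lower (0.588%). Direct comparison of Mtf2 null with Jarid2 null called 2368 genes (14.2%), 1185 higher (7.11%) and 1183 lower (7.1%). Of the 18 endoderm list members higher in Mtf2 null, 1 was higher in Jarid2 null, and Gata6 had log2 fold changes against WT of 3.12 in Mtf2 null and 0.16 in Jarid2 null. Mtf2 null exceeded Jarid2 null for Gata6 by 2.97 (adjusted p = 5.0e-12) and for Cubn by 4.30 (adjusted p = 5.2e-13). Sterol genes had 0 of 24 lower in Jarid2 null, and Idi1 was lower in Mtf2 null than in Jarid2 null by a log2 difference of -1.65 (adjusted p = 3.7e-11). Glycolysis genes had 6 lower and 1 higher in Jarid2 null, beside 7 lower in Mtf2 null, with Ldha at -0.99 in Jarid2 null and -1.72 in Mtf2 null against WT. Hypoxia genes had 8 lower beside 9, with Egln3 at -1.94 and -2.0. The amino acid list had 7 higher beside 13, with Trib3 at 1.84 and 1.74. For Trib3 the direct difference between the mutants was -0.09 (adjusted p = 0.56) and for Egln3 -0.05 (adjusted p = 0.76), neither past the test. Hprt in Jarid2 null libraries was at 0.259 to 0.679 CPM, which overlapped with the WT libraries and lay below every Mtf2 null library. Between the mutants too, the lost subunit and the origin of the line cannot be told apart. The same limit holds where the numbers of genes called against WT are set side by side.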

How the data were processed

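The authors extracted total RNA from the undifferentiated cells, removed ribosomal RNA, sequenced the libraries, aligned the reads to GRCm38 with Bowtie2, and deposited estimated counts per gene from Salmon, not normalized. Versions and the annotation release are not given in the sources used here. The estimated counts of the 8 libraries (9889871 to 13737927 in total), 72.7% to 74.4% of which were whole, were rounded and joined by gene ID over the tables. The 36 columns of other times in both tables were not used. For the day 0 single cells the authors deposited UMI counts per gene and well from SORT-seq, and wells with at least 500 genes were kept (366 WT and 357 Mtf2 null) and summed. The embryoid body table was deposited as a signal, gene counts divided by size factors, from polyadenylated RNA. Whole reads were recovered for 100.0% of the values of Pcl1-3 WT within 0.02 of a read, and 44 other columns were not used. Labels of the Mtf2 null and Jarid2 null day 0 samples of that table were at odds with the levels of the targeted genes, so neither sample was used.

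Genes were tested with edgeR 4.0.16 (R 4.3.3), with TMM scaling (factors 0.892 to 1.106) and the quasi-likelihood F-test. Genotype and table were terms, with 5 residual degrees of freedom. The filter was filterByExpr with genotype as the group (minimum count 10, total 15). The common dispersion was 0.0142. Calls needed a log2 fold change beyond 1 in size with a Benjamini-Hochberg adjusted p below 0.001. The code was tested on simulated data. Counts of the duplicates differed by more than sampling noise, and all 8 libraries were kept as separate. That does not make the duplicates independent, and the 5 residual degrees of freedom count them. Single-cell levels carry exact 95% Poisson intervals, which cover counting error only. The level in Pcl1-3 WT was centered by a log2 shift of 0.5 and read as nearer to 1 genotype on the log2(CPM + 1) scale. The shift enters only that reading, and the CPM printed for Pcl1-3 WT are without it and without TMM. Read sharing was the percent of the 31-base words of a gene found in another gene of the annotation. Alternatives were DESeq2 1.42.0, limma-voom (limma 3.58.1), other scalings, filters, thresholds, terms, and samples, and leaving out each library in turn.

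Gene lists and families, the genotypes compared, and the thresholds were chosen with earlier results of these data known. Genes were named by rule. The rule takes the PRC2 subunits, the 8 called higher and the 6 called lower with the largest log2 fold change at 5 CPM or more without overlap, and, from each list, up to 4 called members at 5 CPM or more (1 CPM where fewer than 2 reached it) with the member of highest mean CPM that was not called. Kpna2, Gm10184, Gm10073, and Gm26917, and the pseudogene parents Rpl3, Rpl34, Tdgf1, and Pcna were named after their values were seen. Some genes that the rule takes are not reported here. Promoter windows came from RefSeq (GRCm38.p6), and gene positions are those of GRCm38.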

Additional observations from a re-analysis of the deposited data

Results flagged for a closer look

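In 328 groups of 4 libraries, those of the 164 genes named, the gap between 1 library and the nearest other exceeded the 95% critical value of Dixon's test for 4 libraries in 5 groups. Chance sets apart about 1 group in 20. Among WT libraries Atf3 was higher in mesoderm library 2, at 2.07 CPM beside 1.3 to 1.42 CPM, with a gap of 0.856 of the range, and Hs3st1 was lower in the same library, at 0.173 CPM beside 0.265 to 0.283 CPM (0.841). The other gaps rest on 1 to 3 counts. Apoa2 had 0 counts in WT mesoderm library 2 (0.938), Plagl1 had its 1 count in WT endoderm library 1 (1.000), and Mirg had its 3 counts in Mtf2 null mesoderm library 2 (1.000). All 4 Mtf2 null libraries lay above WT for Atf3, Hs3st1, Apoa2, and Plagl1, and below it for Mirg.

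The genotype difference of 1 gene, Gm10073, a pseudogene named after its values were seen, was unlike in the tables, with an interaction of -9.23 on the log2 scale by the quasi-likelihood test of edgeR. WT libraries had 0.283 and 0.086 CPM in the mesoderm table and 69.4 and 87.8 CPM in the endoderm table, and Mtf2 null libraries 0.962 to 2.32 CPM in both.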

How the results depend on the processing

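Against the 2362 genes called, the alternatives in tool, scaling, filter, terms, table, and samples gave 1702 to 3004, and 0 genes were called in the opposite direction under any of them. Requiring a log2 fold change significantly beyond 1 (glmTreat) left 981 genes, 549 higher and 432 lower, and a fold threshold of 2 on the log2 scale left 832, 432 higher and 400 lower. Both are stricter by construction. The interaction count went from 1 to 9 at an adjusted p under 0.05. Leaving out each library in turn gave 2213 to 2467 genes, with 1251 to 1374 higher and 940 to 1109 lower.

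Deviations of libraries with the same number correlated at r = -0.06 in the mesoderm and 0.17 in the endoderm table, and the labels tie the numbers to no shared source, so the numbers do not pair the samples. With the replicate number and table as a block 2154 genes were called, 1227 higher and 927 lower. Named genes and lists were recomputed under 21 alternatives, glmTreat included, but not at the fold threshold of 2, at an adjusted p under 0.05, or without the genes that share reads. Of 144 named genes that were called, 116 kept their call under each of the 21, 59 of 3022 values lost it, and none reversed. Of the losses, 24 came with glmTreat, and Cdh1, Dnmt3l, Fn1, Tcf7l2, and Rpl34, close to the fold threshold, lost theirs under several. Of 2352 counts of list members, 2090 stayed within 1.5 times the reported count. Leaving out 1 library moved 27 of the 112 reported counts by more than that, which were counts of 1 to 4 members apart from the 6 SOX genes called higher.

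Depth, technical duplicates, 1 line per genotype, and division of reads between copies limit these values. Levels under about 3 counts per library cannot be told from 0. The leaving out of genes that share reads (2087 called) and the use of Pcl1-3 WT were chosen after seeing the data.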
